A study of Mus musculus with 45 samples.

Results

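The transcripts described here are those of the proteasome, the protease that removes ubiquitin-tagged proteins from the cytoplasm and nucleus. They were taken by gene symbol, as every gene named Psma to Psmg followed by a digit and not marked as a pseudogene, which gave 49 of the 53491 genes in the tables. Of these, 19 encode the core particle (8 alpha and 11 beta subunits), 20 the regulatory particle (6 ATPases and 14 other subunits, counting the assembly chaperones Psmd5, Psmd9 and Psmd10), and 9 the activators, the inhibitor and the core assembly chaperones. The remaining match, Psmc3ip, encodes a meiotic recombination factor that shares only its name with the proteasome, and it enters neither the core nor the regulatory particle counts.

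RNA turnover was measured by SLAM-seq in primary cortical cells of WT mouse embryos, taken at E11.5, at E14.5 or at E16.5 and cultured in a neural progenitor medium with N2, B27 and bFGF. At all stages the cells were given 100 uM 4-thiouridine (4sU) for 20 h, then 5 mM uridine, and RNA was collected after 0, 2, 4, 8 and 12 h of this chase. New RNA takes up 4sU, which is read as T-to-C conversions, so the fall in the share of converted Ts during the chase gives a half-life. Each stage had 3 replicates (A to C). A replicate was a pool of 7 embryos at E11.5 or 2 embryos later, split among the 5 chase times, which made 45 libraries. The labels name neither strain nor sex, no untreated cells and no cells without 4sU are among the samples, and the cultures mix all cells of the dissected cortex.

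The core particle is a barrel of alpha and beta rings. Its alpha rings gate the entry, and its beta rings carry the active sites of Psmb5 (chymotrypsin-like), Psmb6 (caspase-like) and Psmb7 (trypsin-like). The regulatory particle caps the barrel: its ATPases, Psmc1 to Psmc6, unfold substrates, while the Psmd subunits bind and remove ubiquitin. Interferon and immune cells replace the catalytic subunits by Psmb8, Psmb9 and Psmb10 (the immunoproteasome), and thymus and testis have forms of their own, Psmb11 and Psma8. Cells that lack proteasome activity are known to induce most subunit genes together, through the transcription factor Nfe2l1. In the developing cortex the proteasome is known for turning over cell cycle regulators and fate determinants.

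The libraries held 15938793 to 43893597 reads, recovered from the deposited CPM (a gene's reads scaled to the same total in every library), and 228723093 to 629094677 covered Ts. Over all genes the conversion rate at 0 h was 1.01 to 1.44% at E11.5 and 1.03 to 1.18% at E14.5. It was higher at E16.5, with 1.80 to 1.91%, and at 12 h it was 0.240 to 0.288% in all 9 libraries. Replicate C of E11.5, with 1.44%, started above A and B (1.09 and 1.01%). The E11.5 libraries at 12 h also held 29686, 35413 and 67623 CPM of Gm42418, a gene at a ribosomal RNA locus, against 3862 to 9482 at 0 h. The neuronal markers Tubb3, Dcx, Neurod2, Neurod6 and Map2 were present at every stage, so the cultures held neuronal cells throughout. Their summed level went from 2694 CPM at E11.5 over 5389.5 to 7173 at E16.5.

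Fitted relative to 0 h, most proteasome transcripts had longer half-lives than the median transcript at all 3 stages. This order turned in an alternative fit without the 0 h libraries, a straight line through the log rates with a free starting level. A half-life was measured for 44, 42 and 43 of the 49 genes at the 3 stages in their order, and for 41 at every stage. The filters were more than 500 covered Ts at each chase time, a half-life of at most 24 h and an R2 over 0.6 in all 3 replicates. The median half-life over the measured members was 5.92 ± 0.72 h at E11.5. At E14.5 it was 5.998 ± 0.404 h, and at E16.5 4.94 ± 0.23 h (mean of the replicate medians ± SD, n = 3). The same median over all measured transcripts was 4.38 ± 0.45 h (10858 transcripts), 4.56 ± 0.19 h (10686) and 3.46 ± 0.07 h (11850). Of the proteasome transcripts, 39 of 44, 36 of 42 and 35 of 43 lay above the median of all transcripts. Their own median stood at percentile 78.0, 77.1 and 80.2 of all half-lives. In replicate C of E11.5 the members' median was 5.10 h, below the 6.19 and 6.46 h of A and B, and without C it was 6.30 h over the stage. The median of all transcripts was lower in C too, with 3.90 h against 4.43 and 4.80 h. In the fit without 0 h the members lay below the median of all transcripts: their median was 4.38, 4.52 and 3.27 h against 4.96, 4.93 and 3.66 h for all, at percentile 24.0, 30.3 and 26.8, with 10, 12 and 7 of 44 members above the median of all. This fit measured 8639, 8444 and 10068 transcripts. It changed both the libraries used and the form of the fit, and the cause of the turn was not tested.

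**Figure D1:**
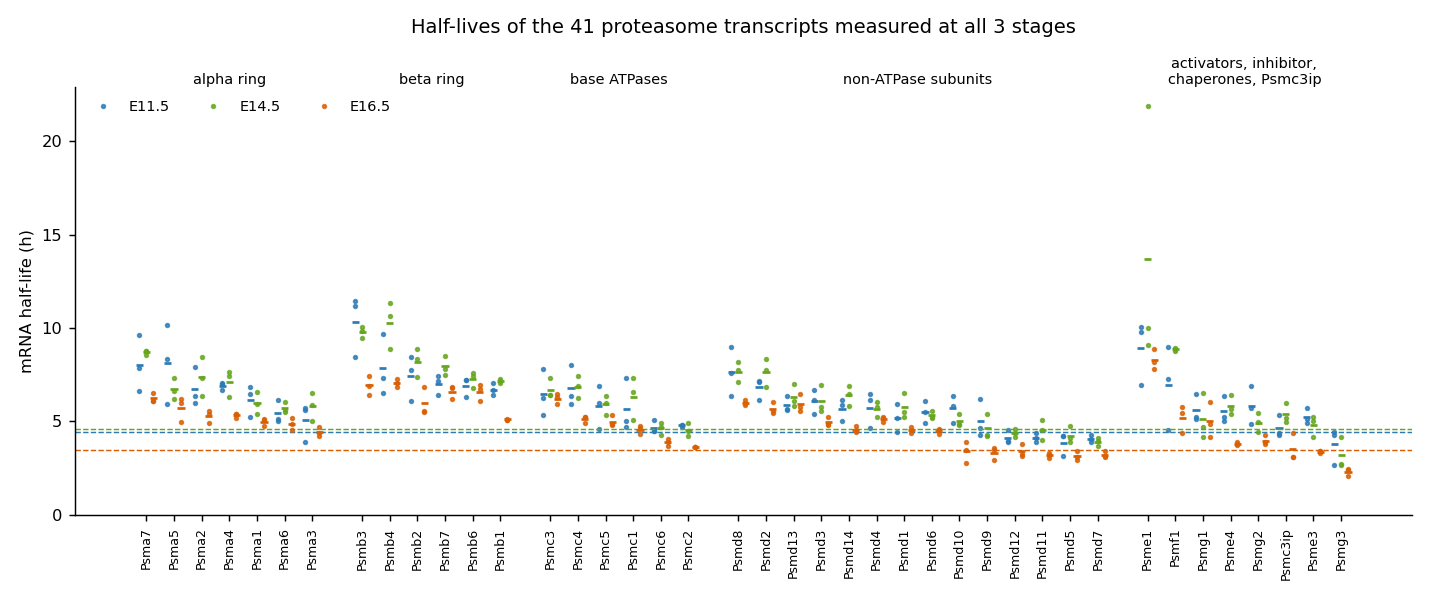
mRNA half-life in hours (y axis) of each of the 41 transcripts measured at all 3 stages (x axis), with 1 point for each replicate and stage, short lines for the means of 3 replicates and dashed lines for the median of all transcripts at each stage. Psmb3, Psmb4 and Psme1 stand at the high end, and Psmd5, Psmd7 and Psmg3 at the low end. The E16.5 means are below those of E11.5 for nearly all transcripts, while the single replicates overlap for some, such as Psme1.

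The core transcripts outlived those of the regulatory particle. In order of stage, the core median was 6.88 ± 0.62, 7.29 ± 0.36 and 5.69 ± 0.18 h, and the regulatory particle median was 5.55 ± 0.72, 5.55 ± 0.26 and 4.53 ± 0.14 h (14 core and 20 regulatory transcripts, n = 3 replicates). Within a replicate the core median exceeded the regulatory one by 1.09 to 1.46 h at E11.5. The gap was 1.62 to 1.81 h at E14.5, and 0.930 to 1.40 h at E16.5. The difference had the same direction in every replicate of every stage and was larger than its spread between replicates. It was not a matter of a few members: 11, 13 and 13 of the 14 core transcripts lay above the regulatory median, and 1, 2 and 3 of the 20 regulatory transcripts above the core median. All 14 measured core transcripts exceeded the median of all genes at each stage, against 16, 15 and 14 of 20 in the regulatory particle.

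Within the core, the beta ring (7.02, 7.85 and 6.74 h at the 3 stages) had longer medians than the alpha ring (6.59, 6.49 and 5.09 h). The ATPases (5.77, 5.96 and 4.76 h) and the other regulatory subunits (5.58, 5.43 and 4.49 h) lay closer together. At E11.5 the gap between beta and alpha rings was smaller than the SD of either median (0.542 and 0.590 h), and at E14.5 and E16.5 it was larger. These SDs include shifts that both rings of a replicate share. Within each replicate the beta median was the higher at every stage. At E11.5 it was 7.20, 7.45 and 6.41 h in A, B and C, against 6.85, 7.00 and 5.91 h for the alpha ring.

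The loss of label showed when the difference arose. After 4 h of chase, core transcripts at E11.5 kept 74.9 ± 3.7% of their 0 h conversion rate, regulatory transcripts 63.4 ± 6.3% and all transcripts 45.3%. At 8 h the shares were 39.4 ± 2.3, 26.4 ± 5.0 and 23.3%, and at 12 h 21.8 ± 3.7, 18.7 ± 3.5 and 20.0%. At E14.5 the core kept 78.4 ± 1.8% at 4 h and 42.5 ± 2.6% at 8 h, against 65.3 ± 2.7 and 27.2 ± 2.3% for the regulatory particle. At E16.5 these values were 72.5 ± 1.2 and 28.8 ± 3.0% against 60.2 ± 1.2 and 17.3 ± 0.5%. The sets were thus apart at 4 and 8 h at every stage, and closer at 2 h, where both kept over 92% of the label. At E14.5 the core was at 100.8 ± 0.6% at 2 h, so its rate had not fallen by then, as a single exponential would. In the straight-line fit of log rates without the 0 h libraries, the core exceeded the regulatory particle by only 0.298, 0.373 and 0.154 h.

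**Figure D2:**
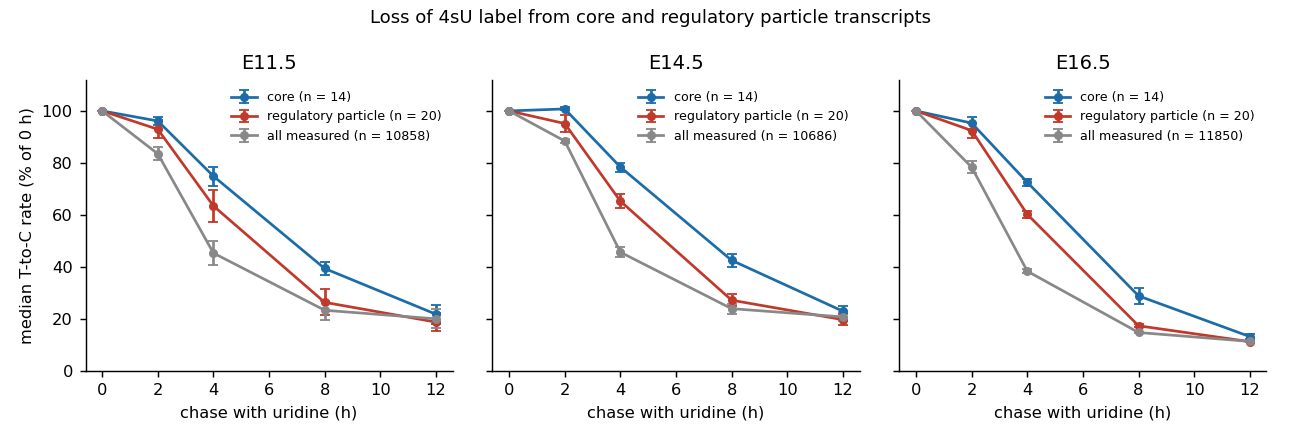
Median T-to-C conversion rate as a percentage of its 0 h value (y axis) against hours of uridine chase (x axis) at each stage, for core, regulatory particle and all measured transcripts. Points are means and bars SDs over 3 replicates, and the core line lies above the regulatory line at 4 and 8 h and nears it at 12 h.

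Psmb3, a beta ring subunit without catalytic activity, had the longest half-life of the core when averaged over the stages. Its half-life in replicates A, B and C was 11.4, 11.2 and 8.43 h for E11.5 and 10.0, 9.49 and 9.84 h for E14.5. For E16.5 it was 7.46, 6.44 and 6.91 h. The E16.5 values lay below all others. Psmb4, a further noncatalytic beta subunit, followed with 7.85 ± 1.65, 10.3 ± 1.28 and 7.07 ± 0.21 h. Among core transcripts measured at all stages, the shortest averages over the stages were those of the alpha subunits Psma3 (5.09 ± 1.02, 5.81 ± 0.75 and 4.43 ± 0.24 h) and Psma6 (5.43 ± 0.64, 5.72 ± 0.30 and 4.88 ± 0.32 h). Psma3 and Psma6 differed from each other by less than their spread at E11.5 and E14.5, and each remained above the median of all transcripts. Psmb10, measured only at the later stages, was below both at E14.5 (3.96, 6.56 and 5.06 h) and spread from 4.40 to 10.0 h at E16.5 (7.25, 4.40 and 10.0 h).

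In the regulatory particle, the lid subunit Psmd8 (7.64 ± 1.31, 7.67 ± 0.54 and 6.001 ± 0.144 h) and the scaffold subunit Psmd2 (6.83 ± 0.57, 7.64 ± 0.75 and 5.68 ± 0.32 h) had the longest half-lives when averaged over the stages, and their replicates overlapped. At E16.5 the ATPase Psmc3 (6.22 h) and Psmd13 (5.93 h) were above Psmd2. The shortest averages were those of Psmd7, the partner of the deubiquitinase Psmd14 in the lid, and of Psmd5 (3.74 h each). The E11.5 replicates of Psmd7 were 4.04, 3.88 and 4.28 h, its E14.5 replicates 3.71, 3.93 and 4.11 h, and its E16.5 replicates 3.15, 3.10 and 3.43 h. Psmd5, a chaperone that holds ATPases during base assembly, reached 3.85 ± 0.61, 4.25 ± 0.46 and 3.13 ± 0.24 h, with a lower mean than Psmd7 at E11.5 and E16.5. Both lay below the median of all transcripts at each stage. Psmd14 itself, which cuts ubiquitin chains from substrates, had 5.68 ± 0.56, 6.39 ± 0.54 and 4.57 ± 0.18 h.

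The activator Psme1, a subunit of the interferon-responsive cap of the core, had the longest half-life of all members when averaged over the stages (10.3 h, against 9.02 h for Psmb3), with E11.5 replicates of 10.1, 9.81 and 6.96 h, E14.5 replicates of 10.0, 9.12 and 21.9 h, and E16.5 replicates of 8.16, 8.87 and 7.82 h. The 21.9 h of replicate C came from a fit with an R2 of 0.629, just past the filter, and the other fits of Psme1 had an R2 of 0.823 to 0.959. Without that replicate the average of Psme1 was 8.93 h, below that of Psmb3. The nuclear activator Psme3 had 5.26 ± 0.41, 4.82 ± 0.55 and 3.39 ± 0.05 h, and Psme4, which caps proteasomes in the nucleus and acts on histones, 5.53 ± 0.72, 5.84 ± 0.52 and 3.82 ± 0.10 h. Psmg3, a chaperone of alpha ring assembly, was the shortest-lived member. It had 4.27, 4.42 and 2.69 h in the E11.5 replicates, 4.15, 2.75 and 2.65 h in those of E14.5, and 2.42, 2.10 and 2.44 h in those of E16.5. Its E11.5 and E14.5 ranges overlapped, and its E16.5 values were lower than any of the others.

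The catalytic subunits Psmb6 (6.91 ± 0.54, 7.27 ± 0.43 and 6.60 ± 0.43 h) and Psmb7 (7.00 ± 0.54, 7.94 ± 0.50 and 6.60 ± 0.36 h) had half-lives whose replicates overlapped at every stage. Psmb5 passed the filters only at E11.5 (4.98, 6.44 and 5.40 h). At the later stages 2 of its 3 replicates passed. Psmb8, Psmb9, Psmb11 and Psma8 had too few covered Ts at every stage. Psmb10 was missing at E11.5, where 1 of 3 replicates passed, Psme2 at E14.5 and E16.5 and Psmg4 at E14.5, with 2 of 3 passing in each case.

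The order of half-lives among members was alike at the 3 stages. Over the 41 transcripts the Spearman correlation of mean half-lives was 0.93 for E14.5 with E11.5, 0.92 for E16.5 with E14.5 and 0.92 for the outer stages. Over all 9505 transcripts measured throughout, it was 0.87, 0.87 and 0.84. These are correlations across genes, which are not independent replicates and share their libraries. In hours, the half-life at E16.5 was 0.804 times that at E11.5 in the median member, and 40 of 41 members had a ratio below 1. The range ran from 0.594 for Psmd10, a regulatory particle chaperone, to 1.01 for the lid subunit Psmd13. The shortening was not particular to the proteasome, as the median ratio of all transcripts was 0.777 and 90.1% of them were below 1. The share of label at the start differed too, since members had a 0 h conversion rate of 1.12% at E11.5 and 1.73% at E16.5.

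To compare stages apart from this common shift, the half-lives of each replicate were scaled to their mean and SD over the 9505 transcripts. By limma's F test with Benjamini-Hochberg adjustment, 3.15% of all transcripts had a relative half-life that differed between stages, and 0 of the 41 proteasome transcripts did. The lowest adjusted p of a member in this limma test was 0.130, for Psmb6. At an unadjusted p under 0.05 there were 11 members (26.8%), beside 21.7% of all transcripts. Between E16.5 and E11.5, 2.99% of all transcripts were relatively longer-lived at the later stage and 1.71% relatively shorter-lived, and again 0 members passed in either direction by limma (5 longer and 4 shorter at an unadjusted p under 0.05). In hours without scaling 11 of the 41 members passed the F test and 8 were shorter at E16.5, beside 2296 and 1202 of the 9505 transcripts. With the replicate letter as a block 1 member was called shorter, beside 49 of all transcripts, and letters do not pair pools of different stages.

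Levels were compared in CPM at 0 h and tested on the covered Ts with edgeR's quasi-likelihood test and Benjamini-Hochberg adjustment. In a bulk culture, fewer cells of a type and less RNA per cell cannot be told apart. The 49 transcripts together made up 6650 ± 346 CPM at E11.5 and 6484 ± 341 at E14.5, but 5356 ± 22 at E16.5. The core accounted for 2174 ± 146, 2302 ± 173 and 1820 ± 18, and the regulatory particle for 3804 ± 164, 3622 ± 191 and 3092 ± 19. At 0 h the E16.5 sums lay below all those of the earlier stages. At 12 h the members summed to 5066 to 5676 CPM at E11.5, 5786 to 6550 at E14.5 and 5158 to 5360 at E16.5, so E16.5 overlapped E11.5 there, and the core was at 1746 ± 101, 2214 ± 175 and 1794 ± 44. Per kb of transcript, Psma7, an alpha ring subunit, and Psmb6 had the highest levels, with means of 308 and 252 CPM per kb over the stages.

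Among catalytic subunits the constitutive forms dominated. Psmb6 was at 204, 227 and 194 CPM at E11.5 (A, B and C), went to 217, 197 and 225, and was at 188, 175 and 185 at E16.5. Psmb7 was at 213, 219 and 208, then 233, 203 and 266, then 175, 183 and 178. For both, E16.5 was lower than E14.5 without overlap. Per kb of transcript, Psmb6 reached 261, 267 and 229 CPM at the 3 stages and Psmb7 184, 202 and 154. Psmb5, on the same scale, reached only 26.2, 25.7 and 22.1.

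The reads of Psmb5 (chr14:54614119-54618022, GRCm38) could not be told with certainty from those of a near-identical copy. The pseudogene Gm3375 on chromosome 7 matched 99.8% of the Psmb5 transcript at 99.0% identity and carried 88.0 ± 8.6, 85.1 ± 10.7 and 76.8 ± 3.5 CPM, against 23.6 ± 2.3, 23.1 ± 1.7 and 19.9 ± 1.7 at Psmb5. The copy thus held 78.9, 78.6 and 79.4% of the reads of the pair, and its apparent half-life was 6.63, 7.79 and 6.23 h. In the same way Gm13835, identical to Psma3 over 779 nt, held 73.6, 74.9 and 70.3% of that pair, with half-lives of 7.05, 7.07 and 5.80 h where Psma3 had 5.09, 5.81 and 4.43 h. Gm8394 held 58.3, 57.2 and 59.0% of the pair with Psma5, and Gm5422 24.0, 23.3 and 24.7% of the pair with Psmd2. Copies at 95% identity or more over at least 150 nt were also found for Psma4, Psmb3, Psmb11, Psmc6, Psmd11 and Psme2. The counting cannot tell these genes from their copies with certainty, so their levels are uncertain, and without the genes that have copies the median half-lives were 5.82, 5.91 and 4.99 h.

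The immunoproteasome subunits were low. Psmb8 had 2 to 23 reads per library at 0 h (0.0962 to 0.545 CPM), and Psmb9 1 to 7 reads (0.0381 to 0.192). Psmb11 had 0 to 3 reads and Psma8 0 to 4 reads per library, too few to give a level. Psmb10 was the only immunoproteasome subunit with a clear level: 6.06, 7.502 and 7.54 CPM in the E11.5 replicates, 5.33, 4.81 and 4.24 in those of E14.5, and 9.09, 8.86 and 9.91 in those of E16.5. The groups did not overlap, with E14.5 lowest and E16.5 highest. Psmb10 (chr8:105935735-105938444, GRCm38) fell by 0.50 on the log2 scale from E11.5 to E14.5 (SE 0.14, edgeR adjusted p = 0.00930) and rose by 0.93 from E14.5 to E16.5 (SE 0.14, edgeR adjusted p = 0.000117). In the libraries of 12 h the first of these differences was 0.07 (SE 0.12, edgeR adjusted p = 0.669), so that fall was seen only at 0 h. Other genes of antigen presentation and the interferon response (Tap1, Tapbp, B2m, H2-K1, H2-D1, Irf1 and Nlrc5) had a summed level of 101 to 122 CPM at E11.5. This was 66.3 to 68.3 at E14.5, with 59.2 to 85.7 at E16.5. By the edgeR test 0 of these 7 rose and 5 fell from E11.5 to E14.5, where 25.1% of all genes rose and 23.5% fell. From E14.5 to E16.5, 2 rose and 1 fell (24.1 and 25.4% of all genes). Between E11.5 and E16.5, 1 rose and 4 fell (31.4 and 33.1% of all genes). Markers of microglia summed to 6.73 to 12.0 CPM at all stages. Among the E16.5 libraries of 0 h, B had the most Psmb8 reads (23, against 3 and 8 in A and C). It was also the deepest, with 38411525 recovered reads against 23994465 and 33964798. B had the highest sums for antigen presentation (85.7, against 66.9 and 59.2) and microglia (12.0, against 7.04 and 7.82). Psmb10 itself was lowest in B, with 8.86 CPM against 9.09 and 9.91. The part of other cell types in the change of Psmb10 was not tested.

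**Figure D3:**
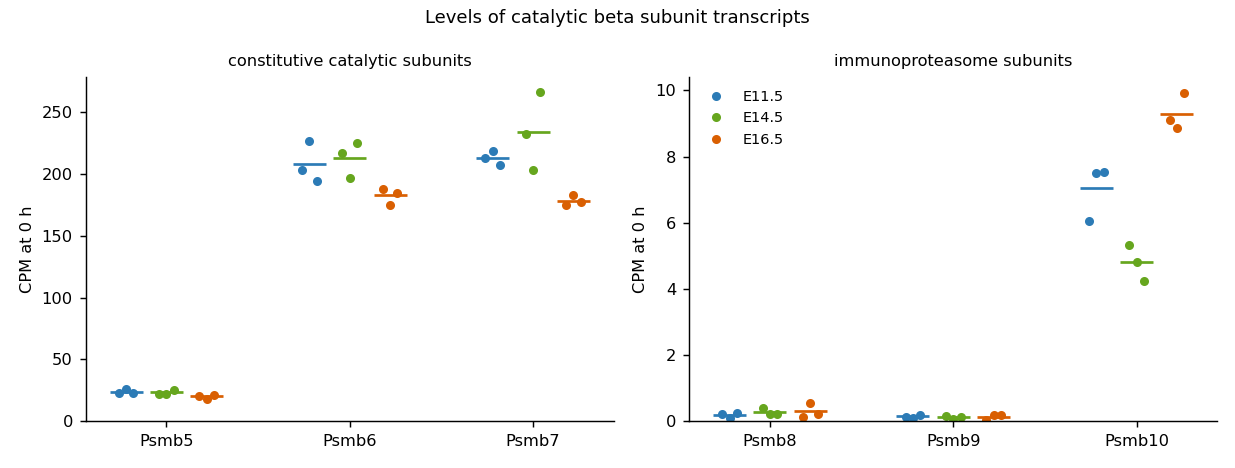
CPM at 0 h (y axis) of the constitutive and the immunoproteasome catalytic subunits (x axis), with 1 point per replicate, coloured by stage, and lines for the means; the y axes of the panels differ. Psmb6 and Psmb7 lie near 200, Psmb5 near 20, Psmb10 under 10, and Psmb8 and Psmb9 near 0.

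From E11.5 to E14.5 the members showed no common direction. Of the 47 tested, 6 rose, where 25.1% of all 18408 tested genes rose, and 7 fell, where 23.5% of all genes fell. Their median log2 fold change was 0.01. The core had 3 rises and 1 fall among 17, the regulatory particle 2 and 3 among 20. Psmd14 rose most, from 208, 218 and 196 CPM to 264, 239 and 288 (log2 fold change 0.39, SE 0.07, edgeR adjusted p = 0.000507), with no overlap. The alpha subunits Psma4 (0.28) and Psma6 (0.24) followed, and their replicates overlapped. Besides Psmb10, the largest falls were those of Psme4 (-0.47) and of the ATPase Psmc3 (-0.36). Without normalisation of the library composition by TMM the counts were 2 rises and 11 falls, beside 3970 and 5168 of all 18408 genes. With replicate A of either stage left out, 3 rises remained. Without replicate B of E11.5 there were 4 falls.

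From E14.5 to E16.5 the fall was broad. By edgeR 24 of 47 members (51.1%) fell and 2 rose, where 25.4% of all tested genes fell and 24.1% rose, and the median log2 fold change was -0.21, beside -0.0018 for all genes. Falls were seen in 11 of 17 core, 10 of 20 regulatory and 3 of 9 other transcripts, so that both particles took part. The largest were those of the alpha subunits Psma4, from 125, 111 and 133 to 77.7, 84.6 and 83.1 CPM (-0.56, SE 0.07, edgeR adjusted p = 4.16e-05), and Psma1, from 212, 186 and 233 to 144, 144 and 144 (-0.53, edgeR adjusted p = 5.45e-05). Psmg2, an alpha ring chaperone, fell from 38.2, 34.4 and 42.0 to 27.2, 24.8 and 26.1 (-0.51, edgeR adjusted p = 0.000206). None of these groups overlapped. The 2 that rose were Psmb10 and Psmd9, a base assembly chaperone, which went from 37.1, 35.9 and 38.6 to 44.1, 43.5 and 43.8 (0.29, SE 0.07, edgeR adjusted p = 0.00434). In the libraries of 12 h, 24 members fell, 21 of them the same, and 2 rose, Psmb10 and Psmf1, while Psmd9 did not pass. Of the 17615 genes tested there, 4487 fell and 4309 rose.

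From E11.5 to E16.5, 26 of 47 members (55.3%) fell and 2 rose, where 33.1% of all genes fell and 31.4% rose. The median log2 fold change was -0.24, beside -0.04 for all genes. The regulatory particle held 14 of these falls among 20, including all 6 ATPases, and the core 6 among 17; this difference between the particles was not tested. The activator Psme4 fell most, from 158, 160 and 145 to 76.9, 79.7 and 80.5 CPM (-0.90, SE 0.07, edgeR adjusted p = 1.12e-07), with E14.5 in between at 98.6, 109 and 114. Psme3 fell from 248, 271 and 242 to 149, 149 and 150 (-0.71, SE 0.07, edgeR adjusted p = 1.65e-06), and Psmd10 from 23.0, 25.2 and 23.8 to 14.4, 15.8 and 16.53 (-0.54, SE 0.09, edgeR adjusted p = 0.000101). Groups did not overlap for any of them. Of the activators of the interferon-responsive cap, Psme1 was at 45.8, 50.4 and 51.1, then 60.1, 54.0 and 54.2, then 47.7, 46.7 and 50.2, and passed the edgeR test only for a rise from E11.5 to E14.5 (0.23, SE 0.09, edgeR adjusted p = 0.0382). This call was lost without TMM, with the replicate block, in the libraries of 12 h and with any replicate but C of E11.5 or C of E14.5 left out (adjusted p by edgeR, DESeq2 or limma from 0.00807 to 0.387 over the alternatives). Psme2 stayed between 6.13 and 9.45 and did not pass the edgeR test on covered Ts between stages. On recovered reads and by limma, both were called as falling after E14.5.

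No member moved by more than 2-fold in any of these comparisons (0 of 47 each time by edgeR), where 16.1%, 13.1% and 29.3% of all genes did so, in the order E14.5 against E11.5, E16.5 against E14.5 and E16.5 against E11.5. In the libraries of 12 h, 17 members fell and 1 rose from E11.5 to E16.5, where 5787 of 17615 tested genes fell and 5641 rose. Without replicate A of E11.5 or C of E16.5, 1 member rose. The stages also differ in their cells: the 6 radial glia markers (Sox2, Pax6, Nes, Hes5, Vim and Fabp7) all fell from E11.5 to E16.5 (summed 9578 to 10113 CPM against 1305 to 1430), the 5 neuronal markers all rose, and the markers of red cells fell from 1603 to 3560 CPM at E11.5 to 27.1 to 61.7 at E16.5. None of the neuronal and radial glia markers was at 0. Their part in the proteasome levels was not tested.

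**Figure D4:**
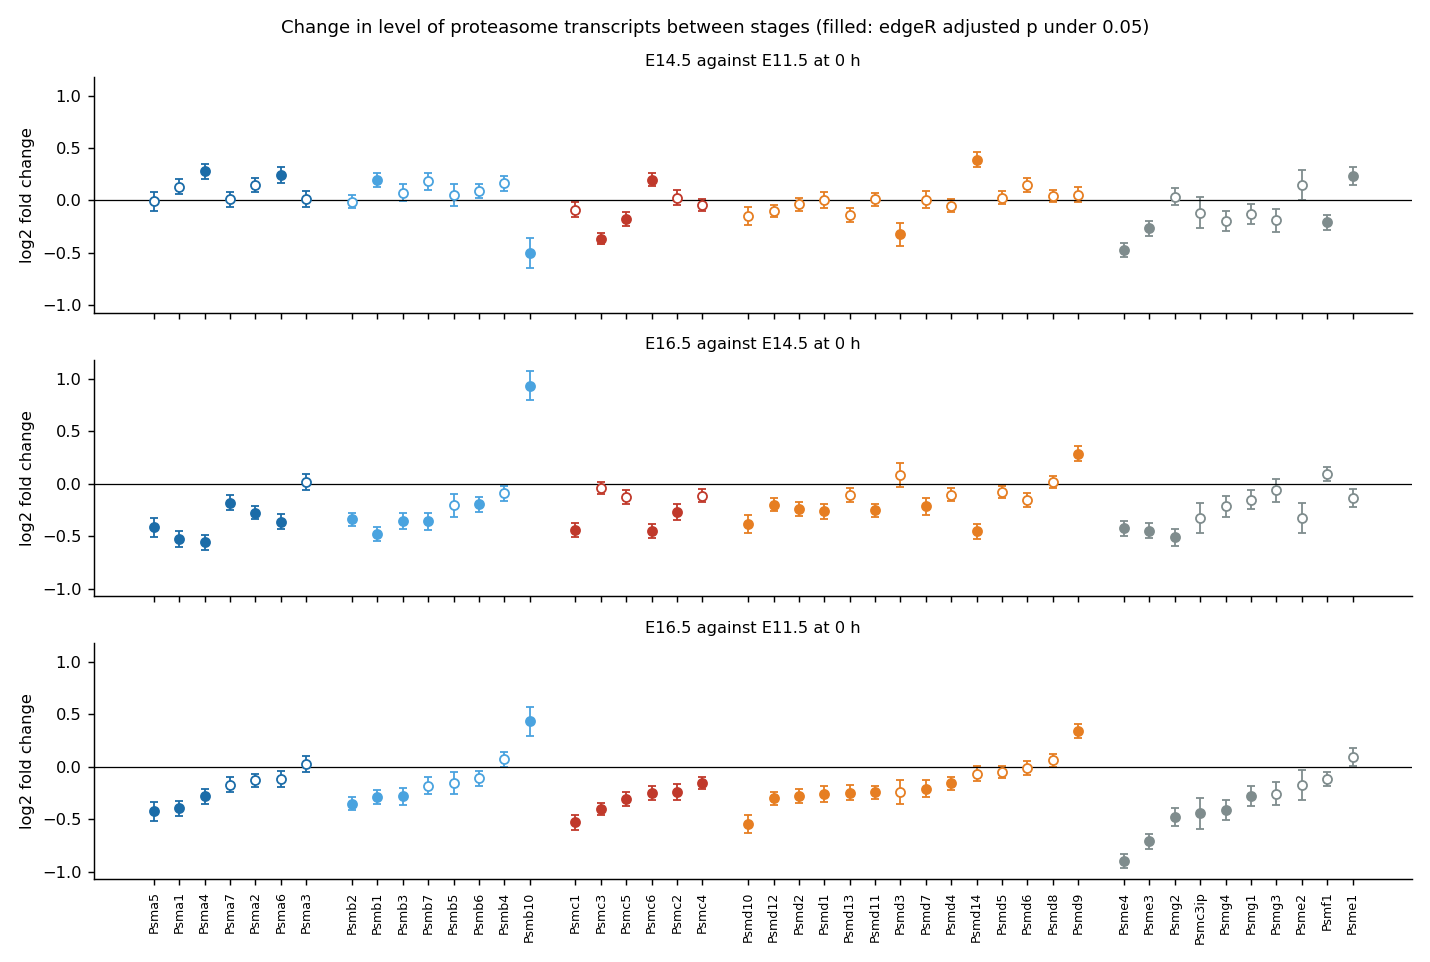
Log2 fold change (y axis) of the tested members other than Psmb8 and Psmb9, which were under 1 CPM (x axis), in the 3 stage comparisons at 0 h, with bars of 1 SE; filled points passed the edgeR test. Most points lie below 0 for E16.5 against E14.5 and against E11.5, with Psmb10 and Psmd9 above, and on both sides of 0 for E14.5 against E11.5.

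The members' summed level at E11.5 was lower after the chase, with 6324 to 7013 CPM at 0 h and 5066 to 5676 at 12 h, without overlap. The log2 change was negative for 42 of 47 members, with a median of -0.12 beside -0.02 for all genes. Few members passed the edgeR test without a replicate block, which does not pair the libraries of a pool. At E11.5, 1 of 47 members rose and 7 fell between 0 and 12 h by edgeR, where 10.3% of all genes rose and 8.18% fell. Psme4 rose, from 158, 160 and 145 to 180, 193 and 140 CPM, with overlap (0.32, edgeR adjusted p = 0.0242). The larger falls were Psmb10, from 6.06, 7.502 and 7.54 to 4.68, 4.39 and 4.29 (-0.50, edgeR adjusted p = 0.0368), and Psmc1, an ATPase, from 215, 219 and 188 to 150, 141 and 128 (-0.38, edgeR adjusted p = 0.00436). These falls were without overlap. With the pool as a replicate block, since each pool was divided over the chase times, 15 members fell and 1 rose. Of all 18877 genes, 3042 fell and 3358 rose in that fit. Left without A or without B, 0 members fell and 0 rose, and without C 3 fell. By limma on the log2 read level with 1 added, 29 members fell and 0 rose, beside 3896 and 747 of 18877 genes. This alternative uses no TMM scaling, and the part of the Gm42418 reads given above was not tested.

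At E14.5, 0 of 45 members rose and 2 fell by edgeR, where 6.29% of all genes rose and 5.63% fell. At an unadjusted p under 0.05 these counts were 3 and 7, by DESeq2 2 and 3, by limma 0 and 3, and with the replicate block 1 and 7 (beside 2036 and 1873 of 18784 genes). The falls were Psmf1, the proteasome inhibitor subunit, from 55.9, 50.2 and 55.9 to 42.6, 39.0 and 42.1 CPM (-0.38, edgeR adjusted p = 0.0136), and the lid subunit Psmd11 (-0.29, edgeR adjusted p = 0.0190). Neither passed without A, without B or without C. At E16.5, 3 members rose and 7 fell, where 13.1% of all genes rose and 11.4% fell. With the replicate block 7 members rose and 10 fell, beside 3496 and 3209 of 18733 genes. Psma5 rose from 20.0, 22.1 and 22.6 to 26.0, 26.2 and 26.4 (0.28, edgeR adjusted p = 0.0118), and Psmd10 rose by 0.22. Psmd9 fell from 44.1, 43.5 and 43.8 to 34.7, 35.6 and 33.6 (-0.32, edgeR adjusted p = 0.00189), and Psmf1 from 60.01, 56.0 and 55.4 to 50.2, 45.2 and 44.6 (-0.27, edgeR adjusted p = 0.0110). With any 1 replicate left out, 0 or 1 members rose and 2 fell. Psmf1 was called at all 3 stages, at E11.5 from 63.8, 67.5 and 62.4 to 48.1, 46.2 and 42.5 (-0.33, edgeR adjusted p = 0.00614). The chase change itself differed between stages for 7.55% of all genes, and for 0 of 45 members by edgeR's interaction test (lowest adjusted p = 0.0859, and 6 members at an unadjusted p under 0.05).

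Of 24 further genes of the pathway 23 were in the tables, covering assembly (Pomp), an intrinsic subunit outside the name rule (Sem1), ubiquitin receptors and shuttles, deubiquitinases, ubiquitin itself and the regulators of proteasome genes. Between E11.5 and E14.5, 4 rose and 5 fell by edgeR, between E14.5 and E16.5 5 and 9, and between E11.5 and E16.5 6 and 11. Nfe2l2, a transcription factor of the antioxidant response, fell most. It went from 70.3, 65.2 and 75.7 CPM at E11.5 over 45.7, 60.2 and 52.8 to 16.2, 21.3 and 19.4 at E16.5 (E16.5 against E11.5 -1.84, SE 0.12, edgeR adjusted p = 1.97e-08). Nfe2l1, the regulator named above, was at 216, 230 and 195, then 187, 209 and 183, then 162, 165 and 164, and fell by 0.32 from E11.5 to E16.5 (SE 0.07, edgeR adjusted p = 0.00174).

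The shares that rose (17.4, 21.7 and 26.1% in the same order) were below those of all genes (25.1, 24.1 and 31.4%), and the shares that fell were 21.7, 39.1 and 47.8%, where 23.5, 25.4 and 33.1% of all genes fell. Uba1, the ubiquitin-activating enzyme, rose by 0.51 on the log2 scale from E11.5 to E16.5, Akirin2, which brings proteasomes into the nucleus, by 0.50, Ubb, a ubiquitin gene, by 0.47, and Zfand5, a proteasome activator, by 0.44 (edgeR adjusted p from 3.51e-06 to 0.000147). In the chase, 2 pathway genes rose and 2 fell at E11.5, 2 and 0 at E14.5 (3 and 2 at an unadjusted p under 0.05), and 6 and 2 at E16.5 (26.1 and 8.70%, beside 13.1 and 11.4% of all genes), where Ecpas, a proteasome scaffold, had the largest rise (0.41). At E14.5 the rises were Uchl5 and Ecpas. Of the 23, 22 had a half-life, with medians of 4.53, 4.61 and 3.75 h, below those of the subunits. The range was wide: Pomp, which matures the core, had 8.54 ± 0.65, 10.1 ± 1.44 and 7.14 ± 0.70 h, Sem1 11.8 ± 2.76, 15.3 ± 5.61 and 7.28 ± 0.93 h, and Nfe2l2 2.34 ± 0.25, 2.71 ± 0.08 and 2.48 ± 0.44 h. The relative half-life passed limma's F test for 0 of the 22, and 6 had an unadjusted p under 0.05.

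In the median, the members had short untranslated regions. In the 41 transcripts measured at all stages the 3′ UTR had a median of 294 nt (58 to 2842 nt), beside 1187 nt in 8801 measured protein-coding transcripts, taking the longest coding isoform of GENCODE on GRCm38. The core median was 162 nt and that of the regulatory particle 325 nt. Psma2, Psma3, Psmd5, Psmd9, Psmd11, Psme3 and Psmf1 were above the median of all. The 5′ UTR (median 101 against 182 nt) and the coding region (834 against 1497 nt) were shorter too. Across the members, half-life and log2 3′ UTR length had a Pearson r of -0.40, -0.26 and -0.47 and a Spearman rho of -0.37, -0.28 and -0.47 at the 3 stages. Over all transcripts r was -0.29, -0.29 and -0.31. These are correlations across genes, given as a description, since genes share their libraries and are not replicates.

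**Figure D5:**
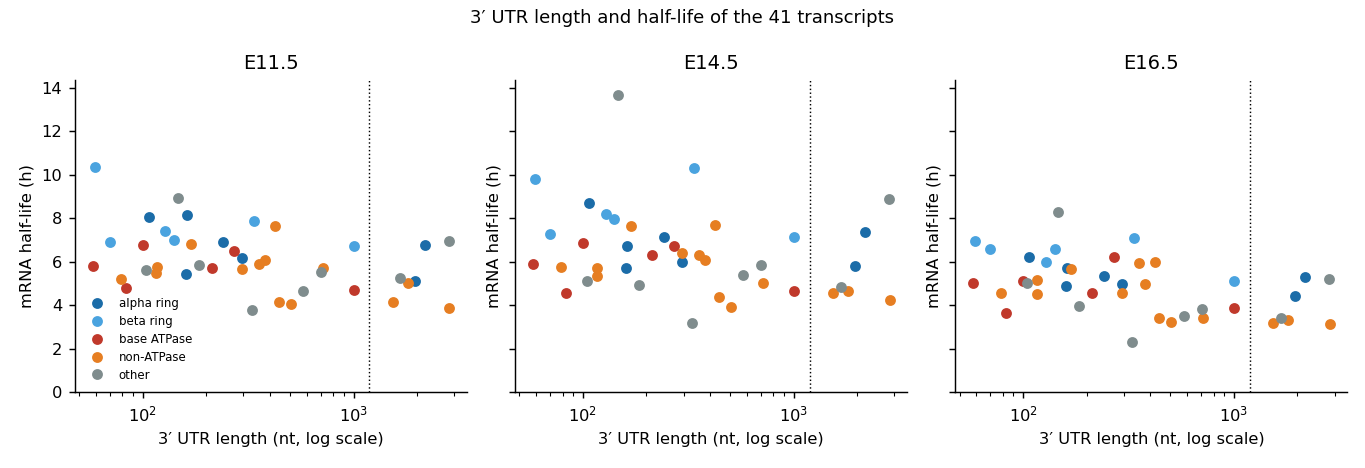
mRNA half-life in hours (y axis) against 3′ UTR length in nt (x axis, log scale) of the 41 transcripts at each stage, coloured by role. Points are means of 3 replicates and the dotted line marks the median 3′ UTR of measured protein-coding transcripts, 1187 nt. Psmb3, with 59 nt, lies at the upper left, and Psmd5, with 2842 nt, at the lower right.

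UTR lengths of single members ranged widely. Psmb3 (chr11:97703399-97713500) has 59 nt of 3′ UTR and Psmb6 70 nt, while Psmd5 has 2842 nt, although Psmf1, with 2822 nt, had half-lives of 6.94 ± 2.22, 8.88 ± 0.09 and 5.19 ± 0.71 h. The letters TGTANATA, a Pumilio-type element, were in the 3′ UTR of 4 of the 41 (9.76%), beside 28.9% of all transcripts, and TATTTAT, an AU-rich element, in 5 (12.2%), beside 31.7%. UTRs were read on the transcript strand and overlapping matches were counted. Longer UTRs hold more matches by their length alone. The 7 TGTANATA matches are shown as the set with the motif, 5′ to 3′ on the transcript strand with 10 bases on each side and the motif in capitals, because they include a short-lived (Psmd5) and a long-lived (Psmf1) transcript:
Psma3, chr12:70994796-70994803: aatacaaataTGTATATAtacagacaca
Psma3, chr12:70994818-70994825: gacacacatgTGTATATAcatttaaatt
Psma5, chr3:108279934-108279941: ttatgaagtcTGTACATAacagcaattc
Psmd5, chr2:34852163-34852170: ttatattattTGTATATAaggaataata
Psmd5, chr2:34851157-34851164: aaaagatttaTGTAAATAtatgagtaca
Psmd5, chr2:34850198-34850205: atttggttatTGTACATAgcctaattgt
Psmf1, chr2:151717124-151717131: ggtttgggaaTGTAGATAacttggaccc

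The half-lives of these genes spread over the range of all members. Psma3 has the shortest average among core transcripts measured at all stages, Psma5 (8.13 ± 2.13, 6.72 ± 0.58 and 5.73 ± 0.67 h) lies in the upper part, and Psmd5 is the third lowest of the 41. Of the transcripts with TATTTAT, Psmb1, a beta ring subunit, has 3 matches, of which 2 overlap, and Psma2, Psmc6, Psme3 and Psmc3ip have 1 each. They are shown in the same way, as the members in which the AU-rich letters occur:
Psmb1, chr17:15475688-15475694: tatctggataTATTTATttattttgag
Psmb1, chr17:15475684-15475690: tggatatattTATTTATtttgagattt
Psmb1, chr17:15475619-15475625: cgtgcatgcaTATTTATgtgaacaggg
Psma2, chr13:14626465-14626471: gttactcgtgTATTTATtgtatatctg
Psmc6, chr14:45349639-45349645: aaattgagatTATTTATagttaattct
Psme3, chr11:101322920-101322926: atgtttctcgTATTTATagtattgtgc
Psmc3ip, chr11:101092182-101092188: gtatttgtaaTATTTATtgtaatataa

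Psmb1 had half-lives of 6.71 ± 0.31, 7.15 ± 0.11 and 5.12 ± 0.03 h and Psma2 6.75 ± 1.02, 7.38 ± 1.03 and 5.30 ± 0.32 h, both above the median of all transcripts. Psmc6 (4.67 ± 0.35, 4.64 ± 0.35 and 3.88 ± 0.18 h) was the ATPase with nearly the shortest half-life, and Psme3 and Psmc3ip lay lower than most members.

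Promoters, as 250 bases before to 50 bases after the RefSeq start on GRCm38.p6, were listed for 34 of the 41. The letters TGANNNNGC, the antioxidant-type element that Nfe2l1 and Nfe2l2 are known to bind with small Maf proteins, were found on either strand in 18 of them (52.9%), beside 48.4% of 7094 promoters of measured genes, so their share was near the background. In the core 7 of 10 held a match and in the regulatory particle 8 of 17. CCAAT, the letters of a common promoter element, was in 38.2% of the members and 43.5% of all. The matches nearest the start are shown for core genes of long half-life and for the catalytic genes listed, in the direction of the strand that holds the match and with the motif in capitals:
Psmb3, chr11:97703424-97703432: gcgttgacccTGAGAAAGCcagagccggt
Psmb4, chr3:94886933-94886941: ccgacagaaaTGAAAGCGCtagcgtcacc
Psmb5, chr14:54618034-54618042: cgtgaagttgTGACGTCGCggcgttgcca
Psmb6, chr11:70525348-70525356: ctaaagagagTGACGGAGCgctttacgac

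The match lies 6 bases before the start in Psmb3, 5 before it in Psmb6, 43 before it in Psmb5 and 21 after it in Psmb4, where it is on the opposite strand. A match of these letters is a description of the sequence and not a binding site. Psmb3 and Psmb6 fell from E14.5 to E16.5 (-0.36 and -0.20 on the log2 scale, edgeR adjusted p = 0.00194 and 0.0290), while Psmb4 (-0.09, edgeR adjusted p = 0.308) and Psmb5 (-0.21, SE 0.11, edgeR adjusted p = 0.127) did not pass the test. The call of Psmb6 was lost with DESeq2, with the stricter filter and with any replicate of E14.5 or E16.5 but B of E14.5 left out (adjusted p by edgeR, DESeq2 or limma from 0.0142 to 0.108 over the alternatives).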

How the data were processed

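The deposited tables, 1 for each stage and replicate, held for every gene and chase time the covered Ts as counts, the T-to-C conversion rate as a fraction and the read level in CPM. Per the study's methods the authors aligned reads to mm10 with SlamDunk and summed covered and converted Ts over the exons of each GENCODE gene; how reads matching several places were counted is not given in the sources used here. The deposited CPM values were whole multiples of the value of 1 read (tolerance 0.01 read, 100% of values), which gave whole reads. The authors' half-life, fit and mean columns were not used. All 45 libraries were mapped by their labels, and 0 columns were left unmatched.

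Half-lives were refitted from the fractions as a single exponential relative to 0 h, in each replicate, with the filters given in the text. The study compared stages with a regression package that was not used here; limma 3.58.1 with an F test on z-scored half-lives took its place. Levels were tested with edgeR 4.0.16 (quasi-likelihood, TMM) on covered Ts of genes with more than 10 covered Ts in all libraries compared; each read counts once for every T under it, so these counts are not independent reads, and recovered reads were an alternative. For stages, the 9 libraries of 0 h entered 1 fit. DESeq2 1.42.0, limma on log2(CPM + 1) and log2(CPM + 0.1), no TMM, no filter, stricter filters, the replicate block, each replicate left out and the libraries of 12 h were alternatives. P-values measure the spread between pools.

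The letters pair libraries of a stage, since by the study's methods each pool was divided over the chase times. Deviations from group means correlated by 0.05 (B of E14.5) to 0.62 between 0 and 12 h (10086 genes), and by -0.29 to 0.21 between stages. The members, lists and tests were chosen with earlier results of these data known. Members described singly were the catalytic subunits, the 2 longest- and 2 shortest-lived of each particle, the longest and shortest of the rest, the activators, and the largest called changes of each comparison (3 each way between stages, 2 in the chase). Copies were sought in the reference genome with blastn 2.17.0. UTRs came from GENCODE models of an earlier release than the authors'. Scripts were tested on simulated data. Paaf1 was not analysed here. The neuronal and the antigen presentation lists were each used without 1 gene that is not reported here.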

Additional observations from a re-analysis of the deposited data

How the results depend on the processing

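The median half-life of the members moved to 4.82, 4.93 and 4.46 h (the 3 stages in order) with a pooled background rate subtracted, and to 4.38, 4.52 and 3.27 h in the fit without 0 h, where it lay below the median of all transcripts (4.96, 4.93 and 3.66 h) and so turned its direction against them. With single replicates left out it ranged from 5.62 to 6.30, 5.72 to 6.24 and 4.93 to 5.09 h. The core minus regulatory particle difference moved to 0.298, 0.373 and 0.154 h in the fit without 0 h. At E14.5 it was 1.71 h with R2 over 0.8, 1.26 h with the background subtracted, 1.30 h without Psmd5, Psmd9 and Psmd10 and 1.77 h without genes with copies or overlapping exons, and at E16.5 it was 1.54 h without genes with copies (the last 3 chosen after seeing the data). With replicates left out it was 1.19 to 1.44, 1.46 to 1.60 and 0.987 to 1.29 h, the lowest without A of E16.5. The causes were not tested.

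The relative half-life test called 11 members in hours without scaling (2296 of 9505 transcripts) and 1 in the fit without 0 h (335 of 6599). For E16.5 against E11.5 it called 8 shorter in hours (1202 of all) and 1 shorter with the replicate block (49 of all). With R2 over 0.8 it called 1 longer and 2 shorter (360 and 258 of 6362). With single replicates left out it called 0 to 0.

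For E14.5 against E11.5, no TMM gave 2 higher and 11 lower (beside 3970 and 5168 of 18408 genes), and replicates left out 3 to 7 higher and 4 to 7 lower. For E16.5 against E14.5 these ranges were 2 to 2 and 17 to 25. For E16.5 against E11.5 they were 1 to 2 and 21 to 29, and the libraries of 12 h gave 1 higher and 17 lower (beside 5641 and 5787 of 17615 genes). For the chase at E11.5, limma gave 0 higher and 29 (+ 1) or 30 (+ 0.1) lower, no TMM 0 and 14, no filter 4 lower and the replicate block 15 lower, with 0 to 1 higher and 0 to 3 lower when a replicate was left out. At E14.5, DESeq2 gave 2 higher, no filter 1 and the replicate block 1 higher and 7 lower, with 0 to 0 higher and 0 to 0 lower. At E16.5, DESeq2 gave 5 higher, limma (+ 0.1) 1, the replicate block 7, and no TMM 1 higher and 12 lower, with 0 to 1 higher and 2 to 2 lower. With the block, 3042 of 18877 genes were lower at E11.5, 1873 of 18784 at E14.5 and 3209 of 18733 at E16.5. By limma (+ 1) 3896 genes were lower at E11.5, and without TMM 2481 at E11.5 and 2778 at E16.5. Without TMM the median of all genes was -0.11 on the log2 scale for E16.5 against E11.5 and for the chase at E11.5.

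Of the single log2 fold changes described, 478 values kept direction and side of the threshold, 67 kept direction only, and 1 changed sign: Psmb10, E14.5 against E11.5, was 0.0692 in the libraries of 12 h. Depth limited Psmb8, Psmb9, Psmb11 and Psma8. With the pooled background rate subtracted, the median half-life of all transcripts was shorter too, at 3.56, 3.71 and 3.03 h in order of stage. How far a background rate near 12 h limits long half-lives was not tested.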
